A study of Homo sapiens with 6 samples.

Results

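The core machinery that makes and uses microRNAs was followed through 10 transcripts: DROSHA, DGCR8, XPO5, DICER1, TARBP2, AGO1, AGO2, TNRC6A, TNRC6B and TNRC6C. They were taken by gene symbol from the 23368 distinct genes of the deposited table, which lists AGO1 and AGO2 under their older symbols EIF2C1 and EIF2C2, and all 10 passed the filter on low values. The cells were HepG2, an established human liver cancer line, stably transduced with a pLKO lentivirus that had been packaged in HEK293T cells, an embryonic kidney line. In the 3 EV libraries (replicates a, b and c) the virus carried a non-targeting short hairpin RNA, and in the 3 shCHROME libraries (replicates a, b and c) a hairpin against all variants of CHROME, a long noncoding RNA. All 6 libraries therefore carry a pLKO vector with a hairpin, which is itself processed by part of the machinery measured here. The 3 shCHROME libraries bear the same code, SH3, and no source states that the libraries of a group came from separate cultures, so the spread between them may be technical. CHROME itself is not analysed here, so the extent of its knockdown has no measurement beside these results.

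MicroRNAs are short RNAs that guide repression of messenger RNAs. In the nucleus the Microprocessor, made of the nuclease DROSHA and its RNA-binding partner DGCR8, cuts a hairpin out of the primary transcript, and exportin 5 (XPO5) carries the hairpin to the cytoplasm. There DICER1, with the double-stranded RNA-binding protein TARBP2, trims the hairpin to a short duplex, and 1 strand is loaded into an Argonaute protein such as AGO1 or AGO2. A TNRC6 (GW182) protein binds the Argonaute and recruits the enzymes that shorten the poly(A) tail and remove the cap of the target. A hairpin transcribed from a pLKO vector enters this path after the DROSHA step. The knockdown is of interest for this machinery because the literature describes CHROME as a transcript that binds miR-33, miR-27 and miR-128, microRNAs that act on cholesterol genes in liver cells.

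The mature microRNAs that the literature ties to CHROME are shown because their seeds, bases 2 to 8 in capitals, define the matches looked for in the machinery's own transcripts. They were taken 5′ to 3′ from RefSeq (GRCh38.p14).
miR-33a-5p: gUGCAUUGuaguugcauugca
miR-33b-5p: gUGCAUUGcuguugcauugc
miR-27a-3p: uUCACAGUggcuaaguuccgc
miR-27b-3p: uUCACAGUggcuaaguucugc
miR-128-3p: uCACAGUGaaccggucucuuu
miR-33a-5p and miR-33b-5p share 1 seed, and miR-27a-3p and miR-27b-3p another. The seed of miR-128-3p is that of miR-27 moved by 1 base, so the same stretch of a transcript can match both. The next 2 microRNAs, which share a seed, and let-7a-5p are shown because the literature describes them as regulators of DICER1.
miR-103a-3p: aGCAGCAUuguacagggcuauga
miR-107: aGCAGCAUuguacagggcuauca
let-7a-5p: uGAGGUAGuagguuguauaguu

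Matches to these 5 seeds were counted on the sense strand of the longest 3′ untranslated region among the protein-coding transcripts of each gene in GENCODE release 29, as CAATGCA for miR-33, ACTGTGA for miR-27, CACTGTG for miR-128, CTACCTC for let-7 and ATGCTGC for miR-103a and miR-107. Of the 14598 genes tested, 12400 had such a region. miR-33 matched only AGO2 among the 10 transcripts, at 2 places, whereas 9.2% of all genes with a region, and 24.2% of those with 3000 bases or more, held a match. miR-27 matched DROSHA, DGCR8 and XPO5 at 1 place each, TNRC6B at 2 and AGO2 at 4, beside 17.5% of all genes with a match and 39.7% of those with 3000 bases or more. miR-128 matched TARBP2, AGO1 and TNRC6C at 1 place each, TNRC6B at 2 and AGO2 at 4, beside 21.7% of all genes and 47.5% of those with 3000 bases or more, a length that AGO1, AGO2, TNRC6B and TNRC6C exceed. TNRC6A held no match to any of the 5 seeds in its 2420 bases. A match is a description of the letters and shows neither binding nor repression.

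The 3 matches to miR-27 in the nuclear and export steps are shown as examples, with the match in capitals. That of DROSHA begins at base 40 of its region of 935 bases (chr5:31401386-31401392, minus strand, GRCh38), that of DGCR8 at base 1447 of 1767 (chr22:20111555-20111561, plus strand) and that of XPO5 at base 981 of 1538 (chr6:43522881-43522887, minus strand).
DROSHA: cttgctcagtaACTGTGActgttgtctat
DGCR8: atagtcatttgACTGTGActgttgccctt
XPO5: tcacaacctgtACTGTGAgtccattctag
In TNRC6B both matches to miR-27 lie in a stretch that also matches miR-128, 1 base further upstream. They are printed with the miR-128 match in capitals, and the first begins at base 4837 (chr22:40328078-40328084, plus strand) and the second at base 6731 (chr22:40329972-40329978, plus strand) of a region of 12567 bases.
TNRC6B first match: gatctctgagaCACTGTGaagaaatggat
TNRC6B second match: cttcagttcttCACTGTGacaaatgctta

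DICER1 held no match to miR-33, miR-27, miR-128 or let-7 in its 4270 bases and 5 matches to miR-103a and miR-107. Coding regions were not searched. Matches to let-7 were seen in TARBP2 and AGO1 at 1 place each and in AGO2 at 2, beside 11.1% of all genes and 26.1% of those with 3000 bases or more. Matches to miR-103a and miR-107 were also seen in AGO1 and TNRC6B at 3 places each, beside 14% of all genes and 32.8% of those with 3000 bases or more. At least 5 such matches occurred in 6 of the 12400 genes, and AGO2, with 5 in 11888 bases, is also among these 6. These microRNAs were searched because of their known relation to DICER1, so its count is no independent finding. The matches of DICER1 lie on the minus strand of chromosome 14 between chr14:95086330-95086336 and chr14:95089458-95089464, and the first, at base 1034, and the last, at base 4162, are shown with the match in capitals.
DICER1 first match: acacctaaaatATGCTGCagattttataa
DICER1 last match: atacagtaatcATGCTGCagaaatttgca

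**Figure D1:**
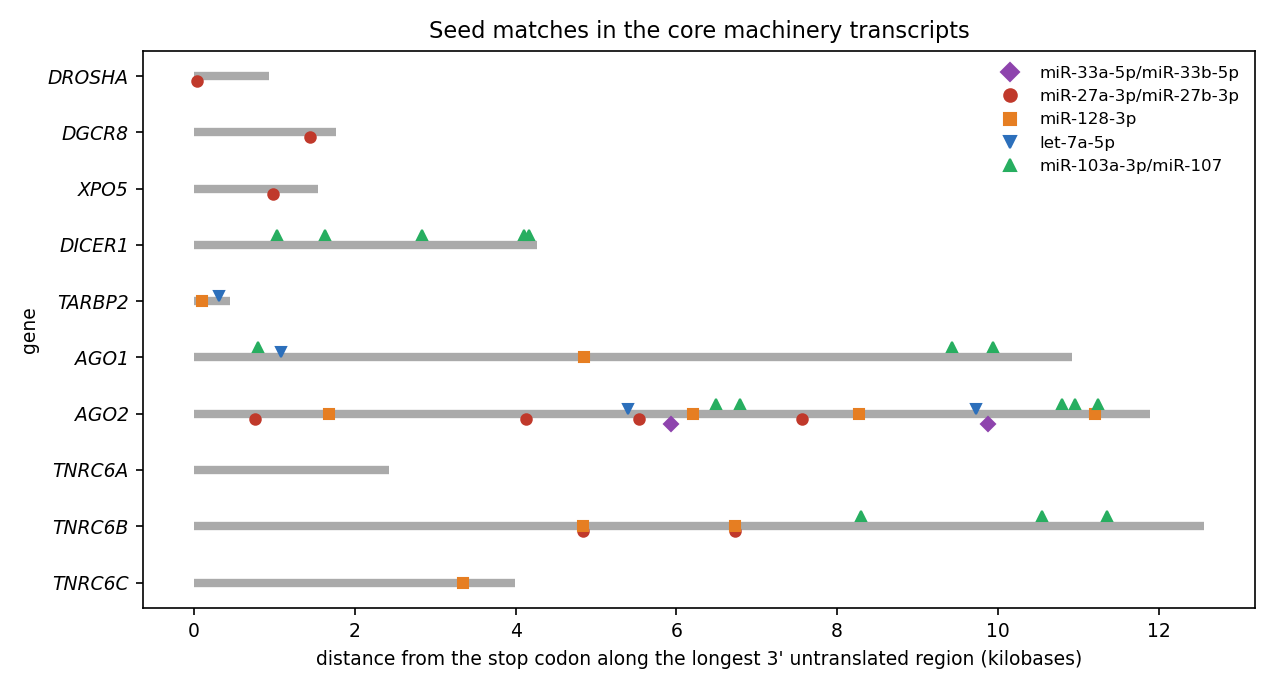
Positions of seed matches, in kilobases from the stop codon, along the longest 3′ untranslated region (grey bar) of each of the 10 genes, with 1 symbol per seed. Matches to miR-33 are seen in AGO2 only, DICER1 has 5 matches to miR-103a and miR-107, and TNRC6A has none.

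None of the 10 transcripts passed the test between shCHROME and EV, where 10.5% of the 14598 genes tested did. The smallest limma adjusted p was 0.0536, for AGO1, and the largest 0.884, for TNRC6C. In the mean 6 were higher and 4 lower in shCHROME, beside 7622 and 6976 of all genes tested. The median log2 fold change of the 10 was 0.071, beside 0.009 over all genes tested. Each 95% interval lay between 1.24-fold lower and 1.32-fold higher, so a larger difference of any single transcript lay outside its interval. The unadjusted limma p was under 0.05 for 3 transcripts (AGO1, DICER1 and DROSHA), a threshold that 24.2% of all genes passed, and edgeR on the recovered reads called 0 of the 10 and DESeq2 1. The groups did not overlap in 4 of the 10, 3 higher and 1 lower, against 28% of all genes (13% higher and 15% lower).

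Library totals ran from 29188213 to 35429420 reads, and each member had between 2759 and 23231 reads over the 3 libraries of a group. Hepatocyte markers were abundant in each library, as the HepG2 label implies, but 6 of the 8 listed were called lower in shCHROME. Over all genes tested 6.87% were called lower, the share to set beside each marker count here. The summed level of the hepatocyte markers was 1406300 to 1526500 normalized counts in EV and 1125500 to 1321500 in shCHROME. In bulk RNA, fewer cells of a type and less RNA per cell cannot be told apart. Genes listed as markers of the HEK293T packaging cells summed to 4515 to 4888 normalized counts in EV and 3794 to 4001 in shCHROME, most of it CDH2. Of these 8 genes 3 were tested and 2 called lower (L1CAM and CDH2), and NEFL and NEFM were listed at 0 in each library. HEK293T cells were not measured on their own, so this sum does not show that such cells were present. Markers of blood, endothelial and stromal cells summed to 2938 to 3206 and 2668 to 3078, with 1 of the 5 tested of 7 called lower. The part of these shifts in the values that follow was not tested.

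DROSHA, the nuclease of the Microprocessor, had 1303, 1070 and 1417 normalized counts in EV replicates a, b and c and 1361, 1512 and 1485 in shCHROME replicates a, b and c. EV replicate b was the lowest of the 6 and EV replicate c lay above shCHROME replicate a, so the groups overlapped. Its mean was 1264 ± 177 in EV and 1452 ± 80.4 in shCHROME (SD, n = 3 per group), a log2 fold change of 0.21 with a 95% interval of 0.02 to 0.40 (limma adjusted p = 0.152). Without EV replicate b the log2 fold change was 0.094. DGCR8, the partner that binds the hairpin stem, had 1435, 1189 and 1247 normalized counts in EV and 1289, 1417 and 1311 in shCHROME. The shCHROME libraries lay inside the EV range, and the log2 fold change of 0.06 (95% interval -0.11 to 0.22) did not pass the test (limma adjusted p = 0.721). It was 0.136 without EV replicate a, 0.034 without EV replicate c, 0.015 without shCHROME replicate b and 0.000 without EV replicate b.

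XPO5, the exporter of the cut hairpin, had 3217, 2943 and 3208 normalized counts in EV and 3254, 3299 and 3375 in shCHROME. The 3 shCHROME libraries all lay above the EV libraries, by a margin smaller than the spread within EV. The means were 3123 ± 155 and 3309 ± 61 (SD, n = 3 per group), a log2 fold change of 0.08 with an interval of -0.04 to 0.21 (limma adjusted p = 0.423), which was 0.043 without EV replicate b.

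DICER1, the cytoplasmic nuclease that makes the final duplex, had 6712, 7163 and 7186 normalized counts in EV and 7973, 7730 and 7672 in shCHROME. All shCHROME libraries lay above all EV libraries. The mean was 7020 ± 267 in EV and 7792 ± 159 in shCHROME (SD, n = 3 per group), 1.11-fold higher (log2 fold change 0.15, 95% interval 0.04 to 0.27), and the limma adjusted p of 0.0873 missed the threshold. With libraries scaled to their totals in place of the authors' size factors it was 0.0209, a call in that setting alone among the 14 alternatives. TARBP2, the double-stranded RNA-binding partner of DICER1, went the other way in the mean, with 1035, 1083 and 961.8 normalized counts in EV and 956.4, 926.4 and 891.8 in shCHROME. The groups did not overlap, though the lowest EV and the highest shCHROME library were nearly level, and the log2 fold change was -0.15 (95% interval -0.31 to 0.01, limma adjusted p = 0.238).

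AGO1, an Argonaute that holds the guide strand, came nearest to the threshold. It had 2710, 2667 and 3036 normalized counts in EV and 3191, 3405 and 3092 in shCHROME, with no overlap of the groups. Its mean was 2804 ± 202 in EV and 3229 ± 160 in shCHROME (SD, n = 3 per group), 1.15-fold higher (log2 fold change 0.20, 95% interval 0.07 to 0.34) with a limma adjusted p of 0.0536. Over the 14 alternatives its adjusted p ran from 0.0196 to 0.187, and 3 of them called it: DESeq2 on recovered reads (0.0408), scaling to library totals (0.0196) and limma without EV replicate c (0.0348). AGO2, the Argonaute that can cut a fully paired target, had 1776, 1505 and 1755 normalized counts in EV and 1638, 1677 and 1564 in shCHROME. The shCHROME libraries lay inside the EV range, with a log2 fold change of -0.04 (95% interval -0.20 to 0.11, limma adjusted p = 0.787) that turned to 0.007 when libraries were scaled to their totals. Leaving out 1 library moved it between -0.119, without EV replicate b, and 0.000, without EV replicate a.

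The transcripts of the scaffold proteins of the silencing complex differed in the sign of their log2 fold change. Each 95% interval covered both signs, and none passed the test. TNRC6A had 3035, 3026 and 3347 normalized counts in EV and 3153, 3385 and 3622 in shCHROME, a log2 fold change of 0.11 (95% interval -0.03 to 0.25). TNRC6B had 3527, 3002 and 3698 in EV and 3010, 3345 and 3008 in shCHROME, a log2 fold change of -0.12 (95% interval -0.28 to 0.03). In both the groups overlapped, and the limma adjusted p was 0.328 for TNRC6A and 0.331 for TNRC6B. The log2 fold change of TNRC6A was 0.061 without shCHROME replicate c, and that of TNRC6B -0.212 without EV replicate b (limma adjusted p = 0.0774) and -0.062 without EV replicate c. TNRC6C had 1312, 1063 and 1194 normalized counts in EV and 1132, 1211 and 1147 in shCHROME, with all shCHROME libraries inside the EV range and a log2 fold change of -0.03 (95% interval -0.20 to 0.14) that turned to 0.022 under scaling to library totals and 0.046 without EV replicate a, and was -0.106 without EV replicate b.

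EV replicate b was the lowest EV library for 8 of the 10 transcripts, all but DICER1 and TARBP2. Over all genes tested it was the lowest EV library in 33.1%. It is also the most deeply sequenced library, and whether depth bears on its rank was not tested. In shCHROME, replicate b was the highest library for 6 of the 10 transcripts, beside 35.8% of all genes tested. The coefficient of variation (SD over mean) of the members had a median of 8.08% in EV and 4.27% in shCHROME, where the 5430 genes within the same range of levels had 4.19% and 5.44%. In EV it reached 14% for DROSHA and was smallest, at 3.81%, for DICER1.

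**Figure D2:**
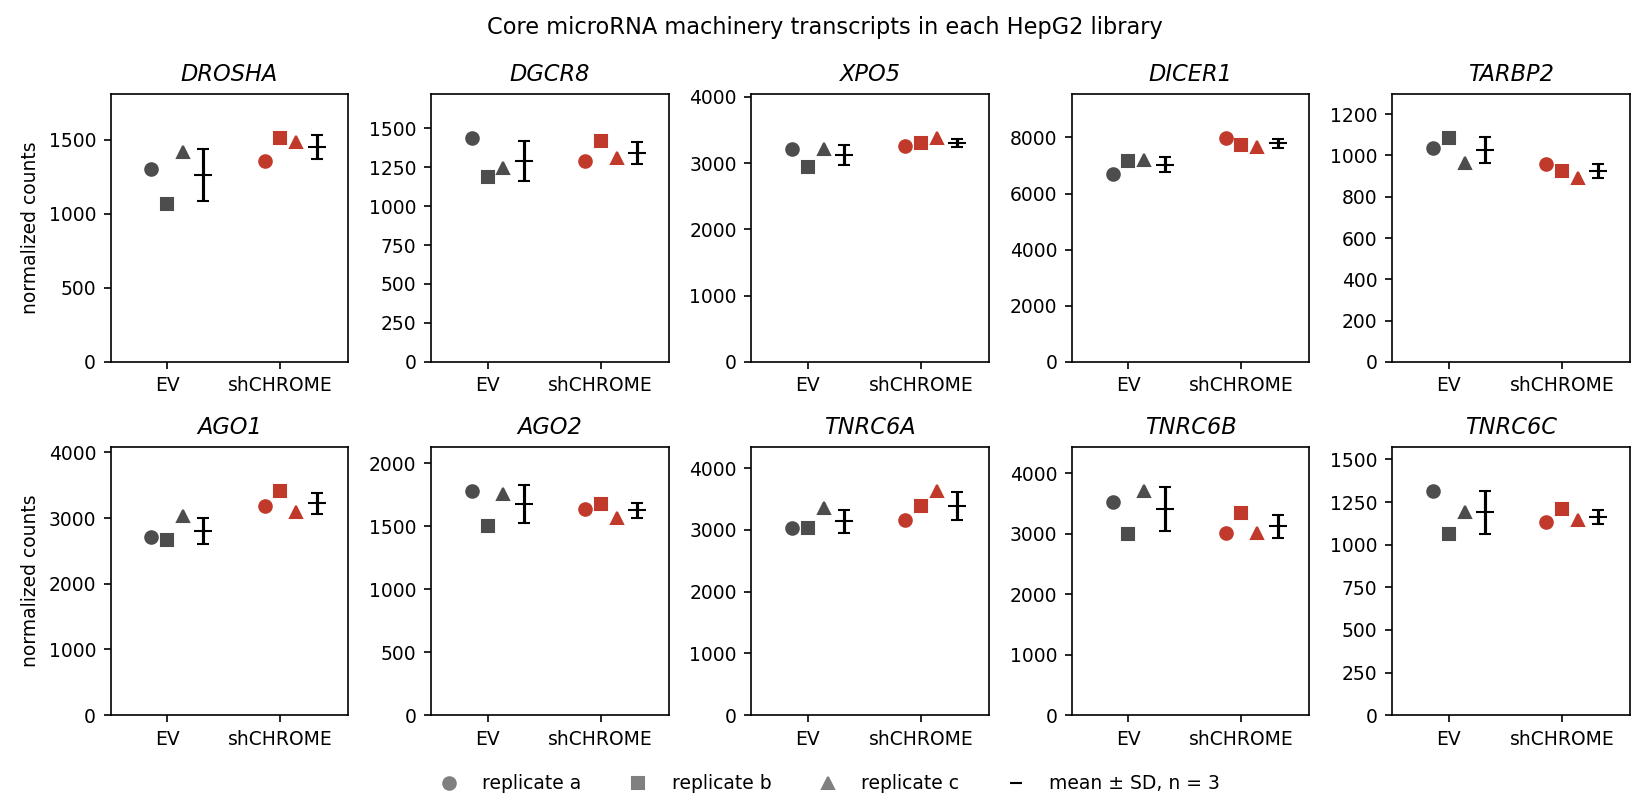
Normalized counts of the 10 transcripts in each library (symbols, replicates a, b and c), with the mean ± SD of 3 libraries in black; each axis starts at 0. EV replicate b (square) is the lowest EV library in 8 panels, and the groups separate without overlap in XPO5, DICER1, TARBP2 and AGO1.

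Between genes, levels were compared as normalized counts per kilobase of annotated exons, since longer transcripts collect more reads. DICER1 stood highest in EV at 571 ± 21.7 per kilobase (SD, n = 3), followed by XPO5 at 366 ± 18.2, and on this length both stood clear of their neighbours by more than the spread. TARBP2 at 251 ± 14.9 and TNRC6A at 243 ± 14.1 did not differ beyond their spread. AGO1 at 202 ± 14.5, DGCR8 at 176 ± 17.6, TNRC6B at 170 ± 18.1 and DROSHA at 162 ± 22.7 formed a run of neighbours within their spread, and TNRC6C at 107 ± 11.2 and AGO2 at 106 ± 9.51 stood lowest. The annotated length decides part of this order, and the annotation behind the counts is not given. Per kilobase of the longest transcript, XPO5 at 582 ± 28.97 and TARBP2 at 550 ± 32.7 did not differ beyond their spread, and TNRC6A was at 372 ± 21.6.

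Of the summed level per kilobase of the 4 Argonaute transcripts in EV, AGO1 made up 39.3% ± 1.36, AGO4 32.1% ± 1.35, AGO2 20.6% ± 1.11 and AGO3 8.02% ± 0.39 (SD, n = 3). In shCHROME AGO1 made up 42.8% ± 1.63, with 41.9%, 44.7% and 41.7% in replicates a, b and c against 37.8%, 39.4% and 40.5% in EV, so its share did not overlap between the groups. The share of AGO2 was lower in shCHROME, at 18.9% ± 0.392, also without overlap (21.7%, 19.5% and 20.6% in EV against 18.9%, 19.3% and 18.5%). AGO3 at 7.68% ± 0.0973 and AGO4 at 30.6% ± 1.90 overlapped with EV. AGO3 and AGO4, which are partner genes here, had log2 fold changes of 0.02 and 0.01 and did not pass the test (limma adjusted p = 0.92 and 0.944). Among the TNRC6 transcripts TNRC6A made up 46.7% ± 2.22 in EV and 50.1% ± 2.08 in shCHROME, with overlap, and TNRC6B 32.7% ± 1.25 and 29.9% ± 1.51, without. The lowest EV and the highest shCHROME library were nearly level for AGO2 (19.5% and 19.3%) and TNRC6B (31.3% and 31.1%). Shares of a sum move together, and they were not tested.

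**Figure D3:**
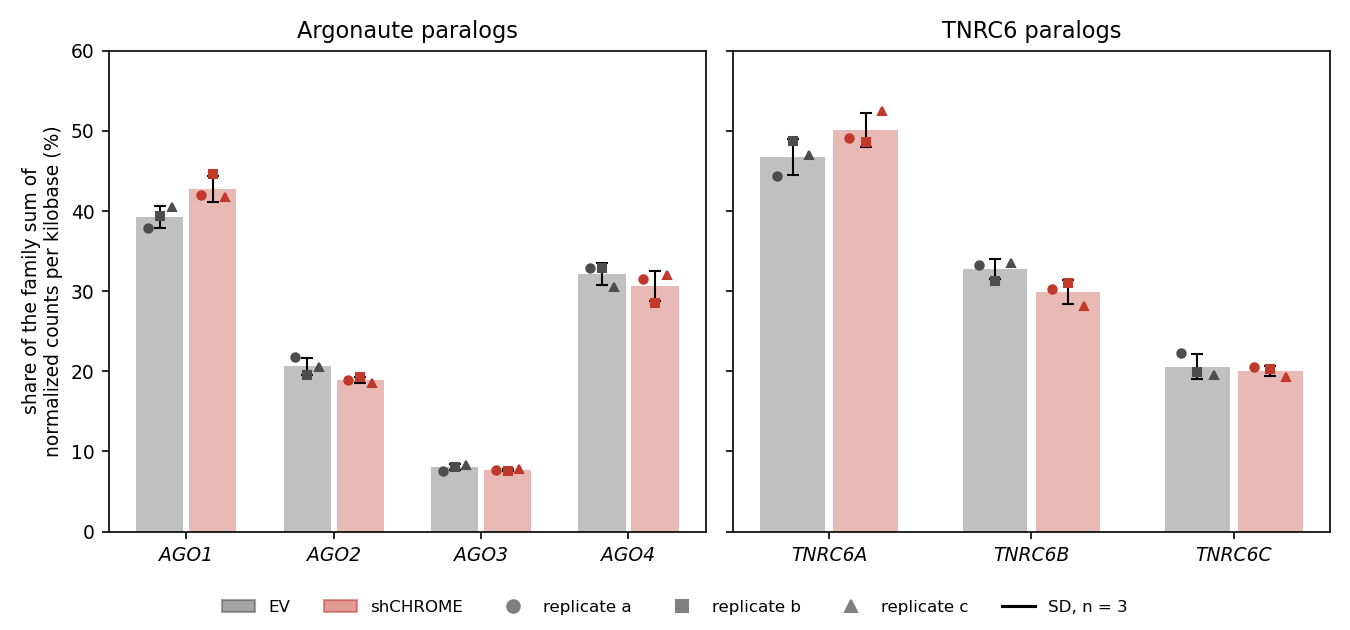
Share of each paralog in its family's sum of normalized counts per kilobase of annotated exons, in percent; bars are means, error bars the SD of 3 libraries and symbols the libraries. AGO1 has a larger share and AGO2 and TNRC6B a smaller one in shCHROME, with no overlap of the libraries. The nearest libraries of the groups are nearly level for AGO2 and TNRC6B, whose normalized counts overlapped between the groups. Shares were not tested, and counts did not overlap in 28% of all genes tested.

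The genes that work with this machinery were read off the same fit in 5 lists. Of 97 listed genes 95 were tested, 5 rose, 4 fell and 86 did not pass the test, so 9.47% were called beside 10.5% of all genes (3.64% higher and 6.87% lower). Their median log2 fold change was 0.01. With libraries scaled to their totals, 11 partner genes were called higher, and the split over all genes moved from 532 higher and 1003 lower to 936 and 702. Fits that omitted EV replicate a, b or c or shCHROME replicate c had 2, 1, 2 and 1 partner genes called higher, and the fit that omitted shCHROME replicate a had 7 called lower.

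Of the Microprocessor cofactors 3 rose, all of them RNA-binding proteins better known from splicing. SRSF3, which recognises a motif beside primary microRNA hairpins, had 5268, 5569 and 5128 normalized counts in EV and 6846, 6268 and 6800 in shCHROME. The libraries did not overlap, and the mean was 1.25-fold higher (limma adjusted p = 0.00155, and 1.6e-05 to 0.0174 over the alternatives). HNRNPA2B1, a reader that binds DGCR8, stood at 3941 ± 33.5 normalized counts in EV and 4564 ± 163 in shCHROME (SD over 3 libraries), an increase of 1.16-fold (limma adjusted p = 0.0203). HNRNPA1, which remodels some primary hairpins, stood at 2964 ± 110 and 3420 ± 185, an increase of 1.15-fold (limma adjusted p = 0.0376). The calls of HNRNPA1 and HNRNPA2B1 were each lost when any library but shCHROME replicate b was left out, with limma adjusted p up to 0.171 and 0.0783, and HNRNPA1, like HSP90AA1, HSP90AB1, HSPA8 and PABPC1, may share reads with near-identical pseudogene copies. The other 14 of the 17 cofactors did not pass the test. Of the 17, 12 were positive, beside 7622 of the 14598 genes tested. Their median log2 fold change was 0.076, beside 0.009 over all genes tested.

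In export, dicing and Argonaute loading 1 of 16 genes rose. HSP90AA1, a chaperone that holds Argonaute open for loading, had 17322, 15177 and 16342 normalized counts in EV and 20256, 17542 and 19461 in shCHROME, 1.17-fold higher (limma adjusted p = 0.0276). Its call was lost on leaving out replicate b or c of EV (0.124 and 0.0756) or replicate a or c of shCHROME (0.0688 and 0.126). The sister chaperone HSP90AB1 differed by a log2 value of -0.03 (95% interval -0.15 to 0.09) that turned to 0.018 under scaling to library totals, and HSPA8, which works with it, one of -0.10 (-0.22 to 0.02). PRKRA, a partner of DICER1 and a neighbour of CHROME in the genome, had 2435, 2514 and 2330 normalized counts in EV and 2598, 2602 and 2703 in shCHROME, a log2 fold change of 0.12 that did not pass the test (limma adjusted p = 0.236).

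Of the 29 genes of deadenylation, decapping and translational repression, CNOT8 alone was called. It encodes a deadenylase subunit of the CCR4-NOT complex, and fell from 3899, 3613 and 3588 normalized counts in EV to 3107, 2685 and 3026 in shCHROME, with no overlap. The decrease was 1.26-fold (limma adjusted p = 0.00289) and held in all 14 alternatives, with adjusted p between 0.000144 and 0.0232. CNOT1, the scaffold of the complex, had 14689 ± 945 and 14715 ± 1032 normalized counts in EV and shCHROME (SD over 3 libraries), and its log2 fold change of 0.002 turned negative without EV replicate b, shCHROME replicate b or shCHROME replicate c (-0.052, -0.027 and -0.028). PABPC1, which coats the poly(A) tail, had 25030 ± 3153 and 24626 ± 1473, and its log2 fold change of -0.02 took either sign over the alternatives. Over the list 11 genes were positive and 18 negative, with a median of -0.015, beside 7622 positive and 6976 negative of all genes tested.

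Among 12 genes of microRNA tailing and turnover 2 fell. SND1, a nuclease with roles in decay of hairpins and mature microRNAs, had 26576, 26907 and 26048 normalized counts in EV and 20768, 22665 and 21795 in shCHROME. The groups lay far apart against their spread, 1.22-fold lower in shCHROME (limma adjusted p = 0.0022), and the call held in all 14 alternatives. TUT7, listed as ZCCHC6, adds uridines to hairpin precursors, and its level was 2161 ± 53.8 normalized counts in EV and 1814 ± 95.5 in shCHROME (SD over 3 libraries), a fall of 1.19-fold (limma adjusted p = 0.0164). This call was lost without EV replicate a (0.062) or EV replicate b (0.061). XRN2, an exonuclease, did not pass the test, at a log2 difference of -0.08 (95% interval -0.21 to 0.05).

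Host genes carry microRNA hairpins within their own transcripts, so their level bears on the supply of primary transcripts without measuring the mature microRNA. Of 21 tested, CTDSPL fell and R3HDM1 rose. CTDSPL, the host of miR-26a-1, had 3195, 3138 and 3161 normalized counts in EV and 2602, 2253 and 2478 in shCHROME, 1.30-fold lower (limma adjusted p = 0.000862), a call that held in all 14 alternatives. R3HDM1, the host of miR-128-1, had 830.6, 761.4 and 1016 in EV and 945.2, 1141 and 1185 in shCHROME, 1.26-fold higher with overlap of the groups (limma adjusted p = 0.0468). It lost the call in 5 of 14 alternatives, with adjusted p up to 0.217. ARPP21, the host of the other miR-128 hairpin, had 1 read over the libraries of each group and was not tested.

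The listed hosts of miR-33a, miR-33b, miR-27b, miR-103a and miR-107 did not pass the test. SREBF2, the host of miR-33a, was at a log2 difference of 0.04 (95% interval -0.16 to 0.23), and SREBF1, the host of miR-33b, at 0.05 (-0.10 to 0.21). AOPEP, listed as C9orf3 and the host of miR-27b, had 1298, 1058 and 1092 normalized counts in EV and 975.1, 1017 and 986.4 in shCHROME, with a log2 fold change of -0.21 (-0.38 to -0.03, limma adjusted p = 0.124). PANK3, the most expressed of the 3 pantothenate kinase genes that host miR-103a and miR-107, had 8169, 8392 and 8703 in EV and 8036, 7553 and 7931 in shCHROME, a log2 fold change of -0.10 (-0.22 to 0.01). PANK1 was at -0.08 (-0.21 to 0.05) and PANK2 at -0.06 (-0.18 to 0.07).

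**Figure D4:**
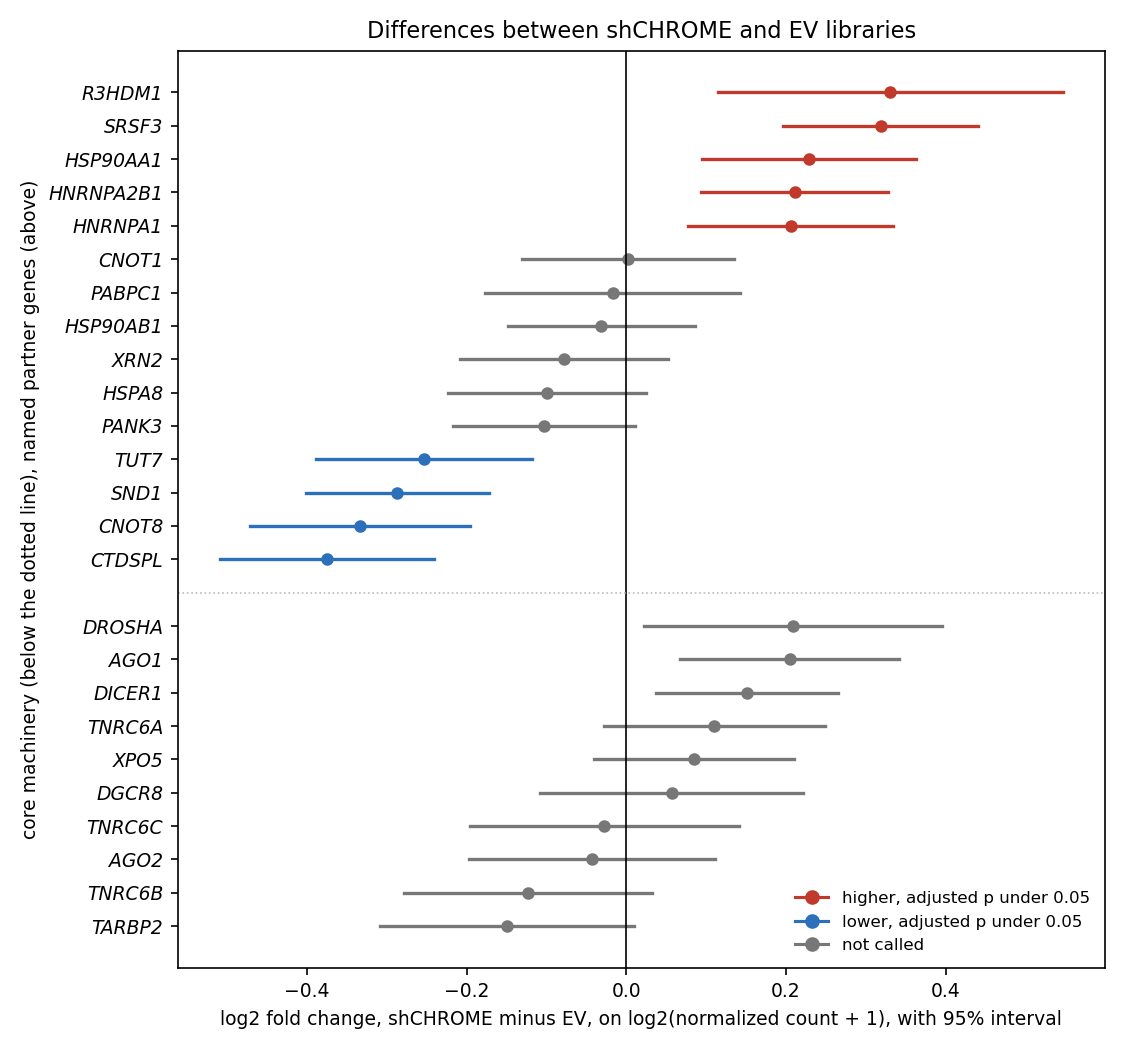
Log2 fold changes (shCHROME minus EV, on log2(normalized count + 1)) with 95% intervals for the 10 core transcripts, below the dotted line, and the partner genes named by rule, above it. The core transcripts are all grey, that is not called, with AGO1 at 0.20 and DROSHA at 0.21; 5 partner genes are called higher and 4 lower.

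**Figure D5:**
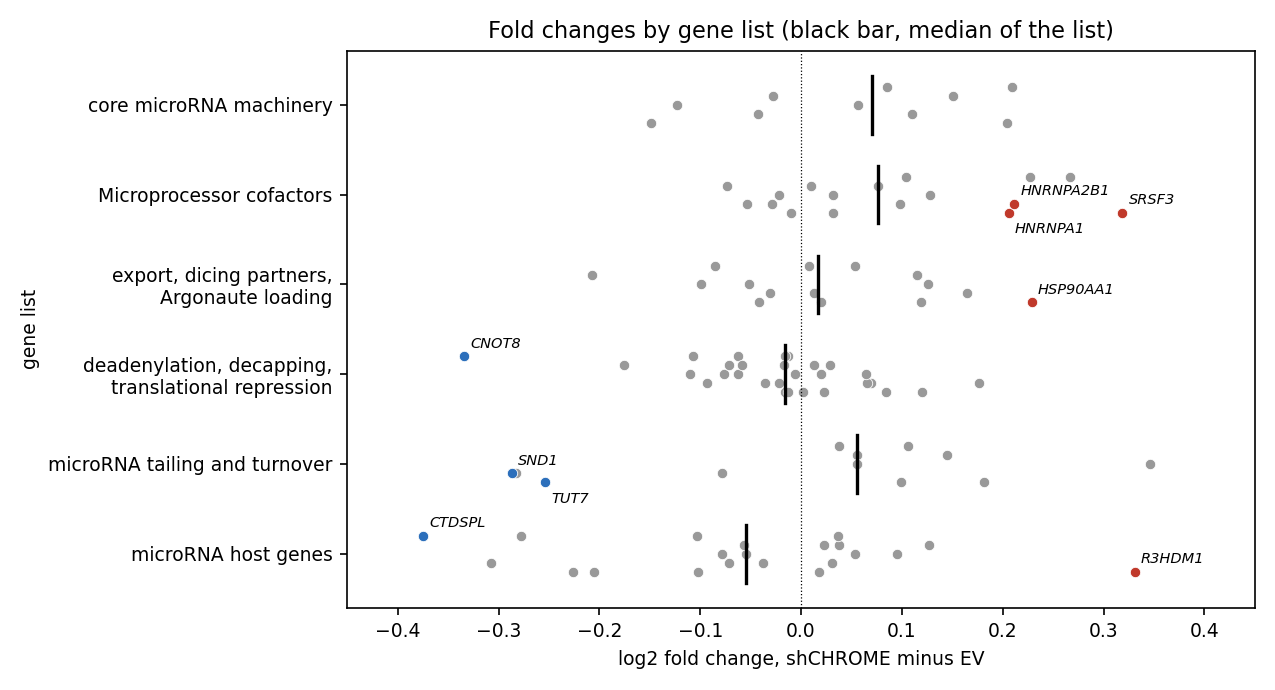
Log2 fold change of each tested gene (points, red higher and blue lower at adjusted p under 0.05) in the core list and the 5 partner lists, with the median of each list as a black bar. Medians lie between -0.055 for host genes and 0.076 for Microprocessor cofactors, and the core list holds no called gene.

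In the authors' deposited table the smallest adjusted p of the 10 core transcripts was 0.0859, for DICER1, and AGO1 had 0.116. In the authors' deposited table SRSF3, HNRNPA2B1, HNRNPA1, HSP90AA1, CNOT8, SND1, TUT7 and CTDSPL had adjusted p between 4.9e-05 and 0.0376, and R3HDM1 0.0985. The authors' mean column is not the mean of these 6 libraries (for CTDSPL 3156 against 2805 normalized counts). Their p-values may therefore come from another set of samples than the test above.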

How the data were processed

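RNA of 6 HepG2 libraries was sequenced in pairs after an Illumina TruSeq preparation, per the labels' protocols. Tools named in the submitters' processing notes were STAR 2.5, DESeq2 (written there as 3.4), featureCounts 1.5.2 and the build hg19; annotation and strand use are not given in the sources used here. The deposited table holds a signal per gene and library, read counts divided by a size factor, besides the authors' log2 fold changes and p-values. Of 24656 rows, 1288 repeats were dropped. In all 6 libraries 100% of values lay within 0.01 of a whole number once divided by what 1 read is worth, and reads were recovered from that step. Replicates differed by more than sampling noise (chi-square per degree of freedom 5.69 to 17.01).

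The test was limma 3.58.1 with a trend on log2(value + 1), group as the only term, over 14598 genes kept by filterByExpr of edgeR 4.0.16, with Benjamini-Hochberg adjustment and a threshold of 0.05. It was tested on simulated data. Fold changes are powers of that log2 difference, which understates changes of low genes. Count tests (edgeR, DESeq2 1.42.0) on recovered reads, scaling, filters, 0.1 as pseudocount, omission of each library in turn and the replicate letter as a block made up the 14 alternatives. Named genes were the 10 members, each called partner gene and, in lists with fewer than 3 calls, the most expressed up to 3. AGO3, AGO4, PRKRA and the hosts SREBF1, SREBF2, AOPEP, ARPP21, PANK1 and PANK2, and the markers CDH2, L1CAM, NEFL and NEFM, were added after their values were seen. Members and lists were chosen with earlier results of these data known. ZSWIM8 had no row under that symbol, and ARPP21 did not pass the filter. Lengths and untranslated regions come from GENCODE 29 and microRNAs from RefSeq, matched by gene identifier or symbol, both on GRCh38, while the authors' build was hg19; coordinates are those of GRCh38.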

Additional observations from a re-analysis of the deposited data

How the results depend on the processing

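The count of called core transcripts was 0 as reported, 1 with DESeq2 (AGO1), 2 with libraries scaled to their totals (AGO1 and DICER1) and between 0 and 1 when 1 library was left out. Under scaling to totals 936 genes were called higher, with 11 partner genes among them, against 532 and 5 as reported; the share of lower genes among all calls was then 42.9% in place of 65.3%, and the median log2 fold change of all genes 0.058 in place of 0.009. Leaving out 1 library gave 245 to 540 genes higher and 600 to 1056 lower, and 1 to 5 partner genes higher and 3 to 7 lower; the counts of higher genes that fell furthest were 301 without EV replicate a, 324 without EV replicate c and 245 without shCHROME replicate c, and fewer samples entered these fits. AGO2, TNRC6C, HSP90AB1 and PABPC1 changed sign under scaling to totals (0.007, 0.022, 0.018 and 0.032), TNRC6C also without EV replicate a (0.046; range on omitting 1 library -0.106 to 0.046), PABPC1 without EV replicate a (0.015), without EV replicate c (0.057) or without shCHROME replicate a (0.033; range -0.123 to 0.057) and CNOT1 without EV replicate b (-0.052) or without replicate b or c of shCHROME (-0.027 and -0.028; range -0.052 to 0.062). The cause was not tested.

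With a replicate block 349 genes were called higher and 764 lower, and 0 core transcripts, and among the named genes HNRNPA1 alone lost its call (adjusted p 0.0863). Same-lettered libraries did not deviate together (r = -0.047, -0.091 and 0.044), where pairs of different letters ran from -0.083 to 0.129. No pairing by letter was seen, which does not show that same-lettered libraries were made apart. With the longest transcript as length, paralog shares in EV and shCHROME were 54.7% and 58% for TNRC6A, 27.4% and 24.7% for TNRC6B and 18% and 17.3% for TNRC6C. On that length they were 21.6% and 19.8% for AGO2 and 8.32% and 7.98% for AGO3. Members had 2759 reads or more per group, and their 95% intervals reached 0.114 to 0.187 to either side on the log2 scale; how much of that width is due to depth was not tested.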
